A study of Gallus gallus with 2 samples.

Results

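The genes described here encode the carriers that move small molecules across the inner mitochondrial membrane and the machinery that brings proteins into mitochondria. They were taken from the microarray's annotation as every gene whose single symbol starts with SLC25A, UCP followed by a digit, TIMM or TOMM. This gave 52 of the 13008 named genes on the array, made up of 34 carriers (33 SLC25A genes and UCP3) and 18 TIMM or TOMM genes. The tissue was the germinal disc region of chicken oocytes, the patch of egg surface that holds the nucleus, taken from yellow follicles of ranks F5 to F7 in hens aged 25 weeks. The Bx hens had lost the bursa of Fabricius, the organ where birds form B cells, by surgery on day 17 to 18 of incubation. The series set the arrays up to find genes raised in oocytes of hens that lack IgY, the antibody of egg yolk. Control hens were kept to the same age. Whether they had sham surgery is not given in the sources used here. Each group was a single pool of RNA from 9 discs of 3 birds on 1 Affymetrix array, so neither group had a replicate, no test across samples was possible, and no p-value is given.

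Mitochondria keep their own pool of metabolites behind an inner membrane that is closed to most solutes. Carriers of the SLC25 family exchange ADP for ATP and bring in phosphate, keto acids, amino acids, nucleotides, cofactors and iron, and uncoupling proteins let protons leak back. Nearly all mitochondrial proteins are made in the cytosol. They enter through the TOM complex of the outer membrane. From there the TIM23 complex takes proteins with a presequence into the matrix, while the small TIM chaperones lead the carriers themselves to the TIM22 complex, which inserts them into the inner membrane. An oocyte loads its cytoplasm with mitochondria that the embryo will use. Roles below are as known from mammals or yeast.

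Values are MAS5 signals, a linear brightness per probe set that the authors scaled to a common level on both arrays. Because the scaling is per array, a change in total mRNA would not appear in any ratio. Where several probe sets read 1 gene, the one brightest on average over both arrays (in log2) was used, called the chosen probe set, and a log2 ratio is always Bx over control. A gene was called measured when its chosen probe set exceeded a background floor on each array, at a signal of 36.4 on the Bx array and 42.6 on the control array. This held for 51 of the 52 members and for 10168 of all named genes. Signals of different probe sets are not on one scale, so levels are compared only between the pools and never between genes. Sorted by brightness into 4 equal groups, from the dimmest to the brightest, the measured genes had an SD of the log2 ratio of 0.49, 0.31, 0.21 and 0.15. These SDs serve as the yardstick for single genes below, and they include any real difference between the pools.

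The labels call the samples oocytes, and markers of more than one cell type were present. Of 10 oocyte and germ cell markers on the array 8 were measured, DAZL, DDX4, GDF9 and BMP15 among them, and all 8 were higher in the Bx pool, also under each scaling tried. Their summed signal with the other markers of the list was 4943 in the Bx pool and 4123 in the control pool. The log2 ratios of the 8 ran from 0.06 to 0.86. TDRD9 and DND1 were not measured, and both read lower in the Bx pool. TDRD9 had 31.7 in the Bx pool, under the floor, and 47 in the control pool. DND1 was under both floors, at 21.2 in the Bx pool and 35.3 in the control pool. Of 11 markers of granulosa cells, the layer around the oocyte, 10 were measured and all 10 were lower in the Bx pool (9 of 10 after quantile normalization). The granulosa sums were 57535 in the Bx pool and 66162 in the control pool. CYP19A1, at 37.5 in the Bx pool and 4.46 in the control pool, was not above the floor on both arrays. Of the endothelial markers 4 of 6 were measured, 3 higher and 1 lower, with a median log2 ratio of 0.44. The endothelial sums were 580 in the Bx pool and 530 in the control pool. The unmeasured KDR (37 in the Bx pool, 38.9 in the control pool) and TEK (15.9 and 23.1) both read lower in the Bx pool. Of the leukocyte and thrombocyte markers 4 of 7 were measured, 1 higher and 3 lower, with a median of -0.18. Their sums were 2623 in the Bx pool and 3520 in the control pool, of which CD74 gave 2212 and 3182. The unmeasured CD3E, PTPRC and SPI1 all read higher in the Bx pool. CD3E had 72 in the Bx pool, over the floor, and 6.25 in the control pool. PTPRC (25.7 in the Bx pool, 8.62 in the control pool) and SPI1 (20.9 and 3.35) were under both floors. Of the theca, fibroblast and smooth muscle markers 5 of 10 were measured, 2 higher and 3 lower, with a median of -0.33. Their sums were 1849 in the Bx pool and 1979 in the control pool. Every sum given here covers all markers of its list on the array, measured or not. Among the unmeasured theca, fibroblast and smooth muscle markers, ACTA2 (7.02 in the Bx pool, 72.9 in the control pool), DCN (3.79 and 57.8) and COL1A1 read lower. DES and LUM read higher. Of the erythrocyte markers 2 of 3 were measured, 1 higher and 1 lower. In a pool of whole tissue, fewer cells of a type and less RNA per cell cannot be told apart. The part of these shifts in the values below was not tested.

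Carrier and import genes had nearly equal signals in the Bx and control pools. Only TIMM10, a small chaperone of the intermembrane space, was past 1.5-fold, 1.71-fold higher in the Bx pool. No measured member was 1.5-fold lower, and none was past 2-fold either way. Among all measured genes 7.74% were past 1.5-fold, 4.11% higher and 3.63% lower, and 1.06% were past 2-fold. The median log2 ratio of the 51 measured members was 0.02, with a range of -0.32 to 0.77, and that of all measured genes was 0.01. Within 1.2-fold of equality lay 43 of the 51 (84.3%), against 71.2% of all measured genes.

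Brightness bears on these shares, because 35 of the 51 members (68.6%) were in the 2 brighter groups of genes, where ratios spread least. In the dimmest group 1 of 7 members was past 1.5-fold, beside 22.9% of all genes there. In the other groups, in order of rising brightness, 0 of 9, 0 of 15 and 0 of 20 members were past it, beside 6.22%, 1.49% and 0.354% of all genes.

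**Figure D1:**
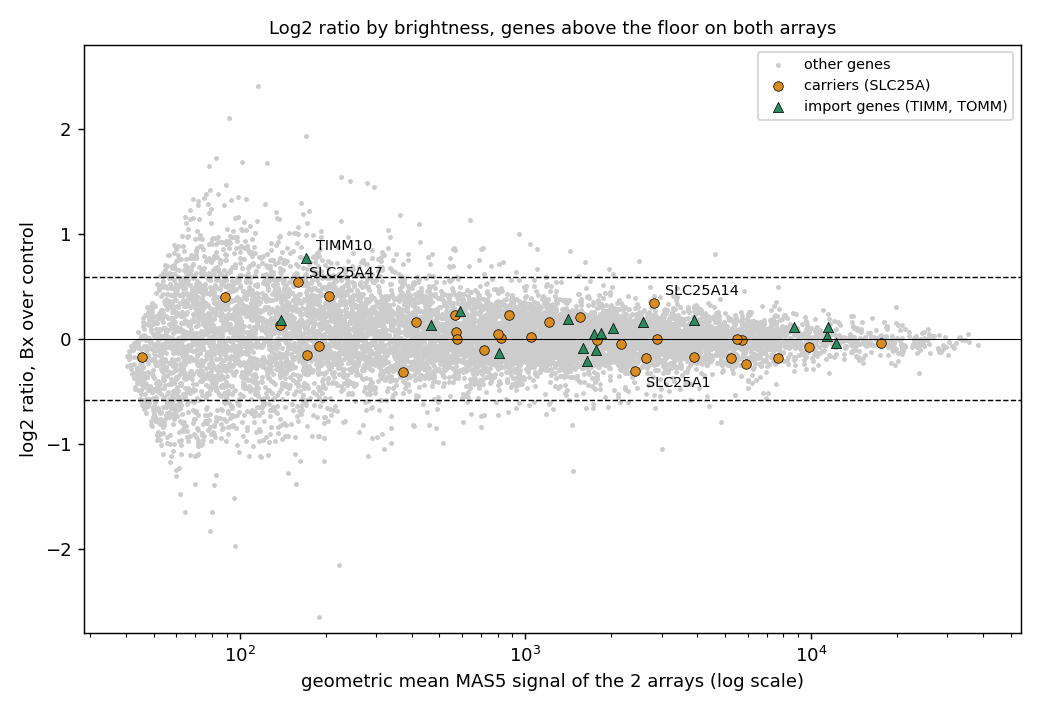
Log2 ratio of Bx over control (vertical axis) against the geometric mean MAS5 signal of the arrays (horizontal log axis), one point per measured gene. Orange circles are carriers, green triangles import genes, grey dots other genes, and dashed lines mark 1.5-fold; TIMM10 at 0.77 is the one member outside the lines.

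The carriers listed for adenine nucleotides and phosphate, SLC25A17 of peroxisomes among them, were close to equal. All 7 on the array were measured, and their log2 ratios had a median of -0.0058 and a range of -0.19 to 0.16. Past 1.5-fold were 0 of them, beside 7.74% of all measured genes. In the 2 brighter groups of genes, which held all of the 7 but SLC25A25, that share was 1.49% and 0.354%. SLC25A4, an ADP/ATP exchanger, had a signal of 1767 in the Bx pool and 1785 in the control pool. SLC25A5, another exchanger of this kind, had 5488 in the Bx pool and 5505 in the control pool. SLC25A6 had 17283 in the Bx pool and 17717 in the control pool. The log2 ratios of these exchangers were -0.01, -0.0046 and -0.04, all smaller than the SD over genes of like brightness (0.21 for SLC25A4, 0.15 for the others). The annotation does not fully separate them, since RefSeq lists SLC25A5 as a synonym of SLC25A6, and the chosen probe sets of SLC25A4 and SLC25A6 are of the _s_at kind, which can match more than 1 transcript. The minor probe sets of SLC25A4 spread more, at log2 ratios of 0.43 and -0.23 on signals under 75.

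SLC25A3, the phosphate carrier, showed the largest difference of the group, with 7205 in the Bx pool and 8194 in the control pool (log2 ratio -0.19, outside the SD of 0.15 for genes of that brightness). Its other probe set was under the control array's floor, at 67.8 in the Bx pool and 39.8 in the control pool, and went the other way. SLC25A24 and SLC25A25 exchange ATP-magnesium for phosphate and so set the size of the adenine nucleotide pool. SLC25A24 had 5734 in the Bx pool and 5757 in the control pool on its chosen probe set, with another at a log2 ratio of -0.35, and SLC25A25 had 439 in the Bx pool and 393 in the control pool. SLC25A17, whose protein sits in peroxisomes, had 822 in the Bx pool and 820 in the control pool. On the chosen probe sets none of these 3 genes differed by as much as the SD over genes of its brightness.

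The group listed as carriers of carboxylates, amino acids and acylcarnitines held the widest spread among the carrier groups. All 12 on the array were measured, 6 of them higher and 6 lower in the Bx pool (5 and 7 after median centring), and the log2 ratios had a median of -0.04. SLC25A1 exports citrate, the source of cytosolic acetyl-CoA for lipid synthesis. Its signal was 2177 in the Bx pool and 2686 in the control pool, a log2 ratio of -0.30, or 1.23-fold lower, which is 2.0 times the SD of 0.15. Both of its probe sets were lower in the Bx pool, with a mean log2 ratio of -0.19 ± 0.16 (SD, 2 probe sets). SLC25A29, a carrier of basic amino acids, had 5462 in the Bx pool and 6431 in the control pool (-0.24, 1 probe set).

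The aspartate/glutamate carriers, which pass reducing equivalents from the cytosol to the matrix, went opposite ways. SLC25A12 had 948 in the Bx pool and 812 in the control pool (log2 ratio 0.22). SLC25A13 had 2480 in the Bx pool and 2821 in the control pool (-0.19), but its other probe sets were at 0.01 and 0.03. SLC25A22, a glutamate carrier, had 9549 in the Bx pool and 10060 in the control pool. SLC25A20, which brings acylcarnitines in for fat oxidation, had 2894 in the Bx pool and 2892 in the control pool on its chosen probe set. A second SLC25A20 probe set had 614 in the Bx pool and 749 in the control pool (-0.29), and the mean over both was -0.14 ± 0.20 (SD). SLC25A21, a carrier of oxodicarboxylates, had 692 in the Bx pool and 743 in the control pool. SLC25A38, a glycine carrier needed for haem synthesis, had 817 in the Bx pool and 793 in the control pool. Apart from SLC25A12 and SLC25A13, none of these carriers passed the SD over genes of its brightness.

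The larger ratios of the group were in dim genes. SLC25A47, a carrier best known from mammalian liver, had 193 in the Bx pool and 133 in the control pool, a log2 ratio of 0.54 (1.45-fold), the member next below the 1.5-fold limit. SLC25A48 had 102 in the Bx pool and 77.5 in the control pool (0.39). Each had 1 probe set and lay in the dimmest group, where the SD over genes was 0.49. The place of SLC25A47 and SLC25A48 among these carriers rests on the list used, and their substrates were not examined. SLC25A15, the ornithine carrier of the urea cycle, had 237 in the Bx pool and 178 in the control pool (0.41). A further SLC25A15 probe set went the other way, with 126 in the Bx pool and 160 in the control pool. SLC25A10, the dicarboxylate carrier, was barely above the floor, at 42.8 in the Bx pool and 48.3 in the control pool.

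Carriers of nucleotides, cofactors and metals were within 1.2-fold of equality in 9 of 10 genes, SLC25A37 being the exception. All 10 on the array were measured, and their log2 ratios had a median of -0.06, from -0.32 to 0.20. SLC25A37, mitoferrin-1, brings iron in for haem and iron-sulfur clusters. Its signal was 334 in the Bx pool and 415 in the control pool, a log2 ratio of -0.32 against an SD of 0.31 over genes of that brightness. Its 3 probe sets above the floor were all lower in the Bx pool, with a mean of -0.31 ± 0.10 (SD, 3 probe sets). The remaining probe set did not reach the control array's floor and went the other way, with 39.0 in the Bx pool and 20.5 in the control pool. SLC25A28, mitoferrin-2, had 1052 in the Bx pool and 1037 in the control pool, and both its probe sets were higher in the Bx pool, at 0.02 and 0.25.

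SLC25A36, a pyrimidine nucleotide carrier, had 4945 in the Bx pool and 5597 in the control pool (log2 ratio -0.18). Its dimmer probe sets disagreed, at -0.57 and 0.40. SLC25A33, which also carries pyrimidine nucleotides, had 163 in the Bx pool and 181 in the control pool. SLC25A51, the NAD carrier, had 3676 in the Bx pool and 4140 in the control pool (-0.17, 1 probe set). SLC25A36 and SLC25A51 were just outside the SD of 0.15 for genes of their brightness, and SLC25A33 was within that of its own group. SLC25A32, a folate and FAD carrier, had 1670 in the Bx pool and 1449 in the control pool (0.20), while its 5 probe sets above the floor averaged -0.14 ± 0.39 (SD).

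SLC25A39, a glutathione carrier, had 1274 in the Bx pool and 1142 in the control pool on its chosen probe set. Its other probe sets stood at log2 ratios of 0.48 and -0.46, so this gene has no settled direction. SLC25A26 carries S-adenosylmethionine, the methyl donor for mitochondrial RNA and proteins. It had 145 in the Bx pool and 132 in the control pool, and a second, dimmer probe set had 85.3 in the Bx pool and 50.6 in the control pool (0.75). Both probe sets were thus higher in the Bx pool, far apart from each other and in the dimmest group. The coenzyme A carriers were near equal. SLC25A16 had 2129 in the Bx pool and 2196 in the control pool, and SLC25A42 had 185 in the Bx pool and 195 in the control pool on its chosen probe set, the other 4 of its 5 being under the floor.

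UCP3, the uncoupling protein gene of birds, was not above the floor on either array. Its 1 probe set read 2.82 in the Bx pool and 25.3 in the control pool, and no ratio is given for signals in the background. The other carriers of this group, SLC25A14, SLC25A30, SLC25A43 and SLC25A46, were all measured, and 4 of 4 were higher in the Bx pool, though SLC25A46 by so little (log2 ratio 0.00011) that median centring, quantile normalization and loess each turned its sign. SLC25A14, an uncoupling-protein relative first described in brain, had 3188 in the Bx pool and 2508 in the control pool. That is a log2 ratio of 0.35 (1.27-fold higher), 2.3 times the SD of 0.15 for its brightness and the largest departure by that measure among the carriers. Its second probe set had 265 in the Bx pool and 229 in the control pool, and the mean over both was 0.28 ± 0.09 (SD). SLC25A30, a close relative, had 586 in the Bx pool and 561 in the control pool. SLC25A43 had 614 in the Bx pool and 524 in the control pool, with another probe set at -0.32. SLC25A46, an outer membrane protein that acts in fission and lipid transfer, read 575 in both pools.

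**Figure D2:**
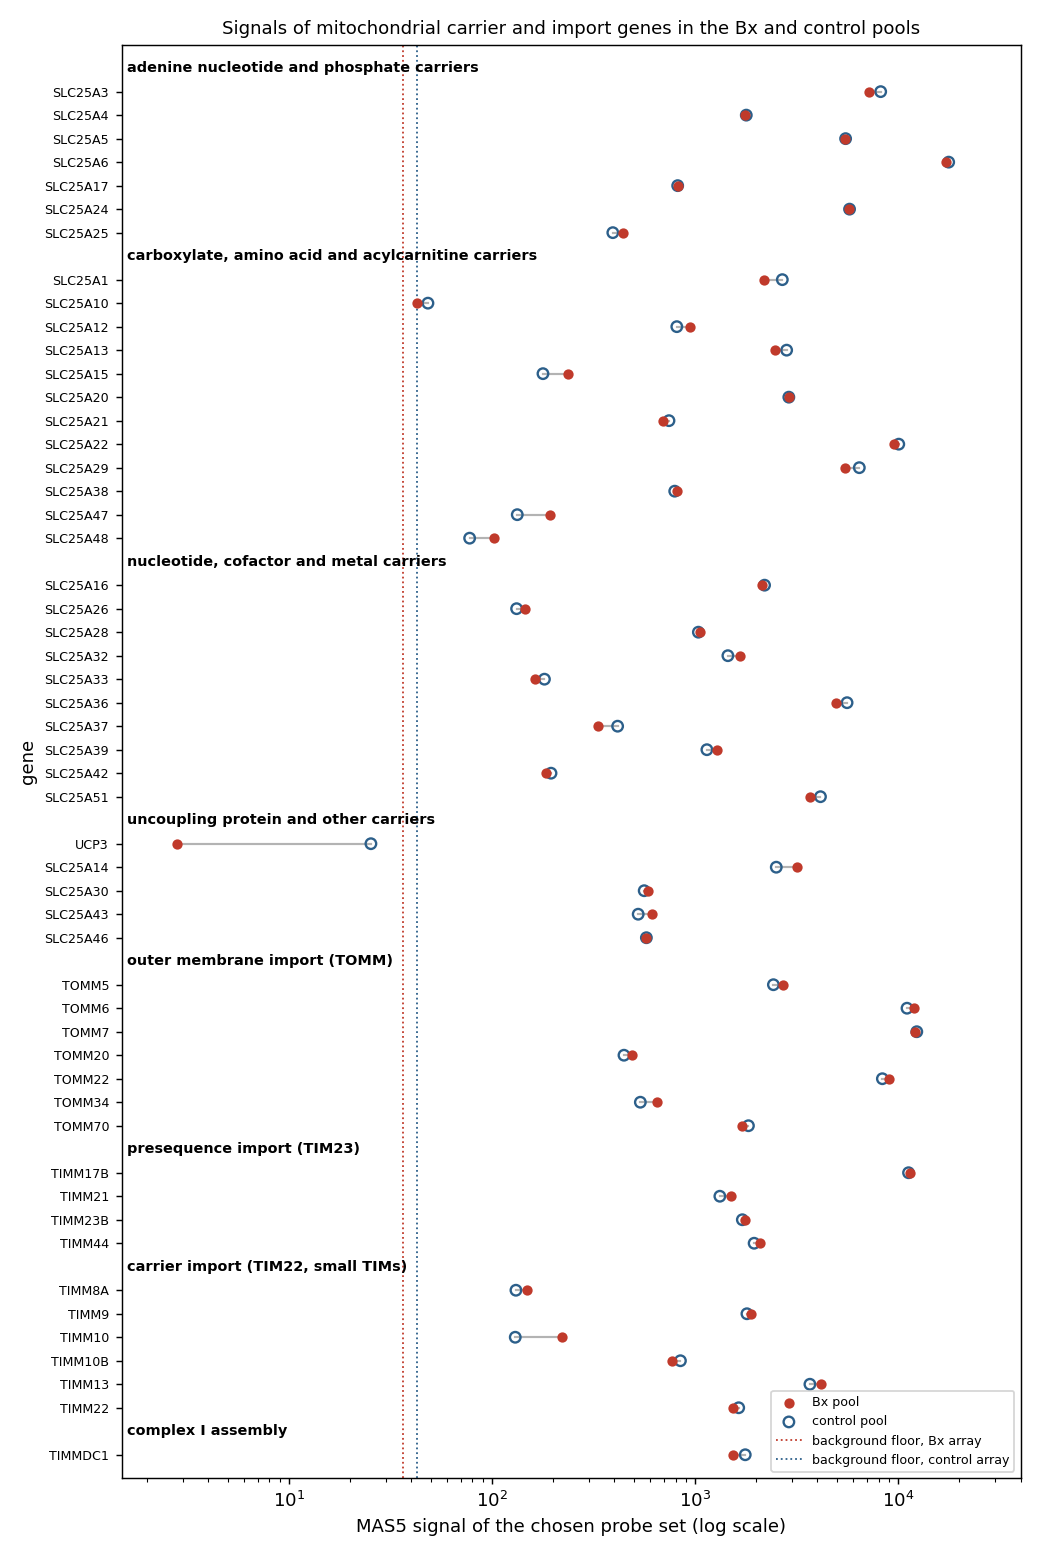
MAS5 signal of the chosen probe set (horizontal log axis) for each of the 52 genes, grouped by role. Filled red points are the Bx pool, open blue circles the control pool, 1 array each, and dotted lines the background floors of 36.4 (Bx) and 42.6 (control); UCP3 lies under both floors, and most pairs of points overlap.

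The TIMM and TOMM genes, called import genes here with TIMMDC1 among them, leaned slightly to the Bx side as a whole. All 18 were measured, 13 of them higher in the Bx pool and 5 lower under each scaling, where 52.4% of all measured genes were higher. Their median log2 ratio was 0.11, against 0.01 over all measured genes, and stayed between 0.06 and 0.11 under the settings tried. TIMM10 was the 1 member past 1.5-fold. Among 21 measured import genes of other names, listed as partners, 11 were higher and 10 lower, with a median of 0.03. The 33 measured carriers had 16 higher and 17 lower and a median of -0.0046, whose sign turned to 0.01 without _s_at and _x_at probe sets. With 1 pool per group, the difference between carriers and import genes could not be tested over samples.

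The 7 TOMM genes, listed with the outer membrane, were all measured, and their log2 ratios had a median of 0.11. In the Bx pool 5 of the 7 were higher, the cytosolic TOMM34 among them, beside 52.4% of all measured genes. TOMM20, a receptor for presequences, had 490 in the Bx pool and 446 in the control pool. Its second probe set had 126 in the Bx pool and 96.7 in the control pool, so both were higher, with a mean of 0.26 ± 0.18 (SD). TOMM22, the central receptor that holds the complex together, had 9030 in the Bx pool and 8353 in the control pool, and its probe sets averaged 0.09 ± 0.04 (SD). TOMM70, the receptor for carrier precursors, went the other way, with 1698 in the Bx pool and 1829 in the control pool (-0.11, 1 probe set). Each of these lay within the SD over genes of its brightness.

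The small TOM subunits help the channel assemble and stay stable. TOMM5 had 2721 in the Bx pool and 2428 in the control pool (log2 ratio 0.16, against an SD of 0.15). TOMM6 had 11912 in the Bx pool and 11045 in the control pool (0.11), and 2 of its 3 probe sets were higher. TOMM7 had 12033 in the Bx pool and 12340 in the control pool (-0.04), and both its probe sets were lower. On the chosen probe sets TOMM5 and TOMM6 were thus higher and TOMM7 lower. TOMM6 and TOMM7 lay within the SD of 0.15, and the 3 probe sets of TOMM6 averaged 0.0033. TOMM34, a cytosolic cochaperone and no part of the channel, had 646 in the Bx pool and 537 in the control pool (0.26, against an SD of 0.31). TOMM40, the channel itself, was not analysed here.

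The 4 measured TIMM genes of the presequence route were higher in the Bx pool under each scaling tried, by small amounts. Listed partners of the same import motor went both ways on their chosen probe sets. HSPA9, its matrix chaperone, had a log2 ratio of -0.06, and its 2 probe sets were both lower. GRPEL1 at -0.10 and DNAJC15 at -0.02 were lower too, while DNAJC19 at 0.35, GRPEL2 at 0.06 and PAM16 at 0.03 were higher. The probe sets of GRPEL1, DNAJC19 and GRPEL2 lay on both sides of 0. The 4 TIMM genes had log2 ratios from 0.03 to 0.19, none outside the SD over genes of its brightness. TIMM21, which couples the outer and inner membrane complexes, had 1505 in the Bx pool and 1323 in the control pool (0.19, against an SD of 0.21). TIMM44, the anchor of the import motor, had 2094 in the Bx pool and 1951 in the control pool, and both probe sets above the floor gave 0.10. TIMM23B, the gene annotated for the channel, had 1764 in the Bx pool and 1707 in the control pool, and both probe sets gave 0.05. In these 2 genes the probe sets agreed to within 0.01. TIMM17B, the partner of the channel, had 11444 in the Bx pool and 11239 in the control pool, and 4 of its 6 probe sets were higher. RefSeq lists TIMM17A as a synonym of this gene.

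The route by which carriers enter the inner membrane held the one gene past the limit. TIMM10 and TIMM9 build the hexameric chaperone that carries hydrophobic precursors across the intermembrane space. TIMM10 (gene ID 425202) had 222 in the Bx pool and 130 in the control pool, a log2 ratio of 0.77 on its single probe set. In its brightness group, the dimmest, the SD was 0.49 and 11.5% of genes were higher in the Bx pool by 1.5-fold or more. TIMM9, its partner in the hexamer, had 1875 in the Bx pool and 1798 in the control pool (0.06), and its 2 probe sets averaged 0.03 ± 0.04 (SD). The chaperone's other subunit gene thus differed little between the pools.

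TIMM8A and TIMM13 form a second small TIM chaperone, and the human TIMM8A gene is the one mutated in a deafness-dystonia syndrome. TIMM8A had 148 in the Bx pool and 131 in the control pool, and TIMM13 had 4155 in the Bx pool and 3673 in the control pool, each a log2 ratio of 0.18. For TIMM13 this was outside the SD of 0.15 over genes of its brightness, while TIMM8A lay in the dimmest group, well within 0.49. TIMM10B, a small TIM bound to the inner membrane, had 769 in the Bx pool and 846 in the control pool (-0.14). TIMM22, the insertion channel, had 1542 in the Bx pool and 1638 in the control pool (-0.09), and its dimmer probe set went the other way at 0.17. TIMMDC1 shares the name pattern but is an assembly factor of respiratory complex I. It had 1528 in the Bx pool and 1764 in the control pool (-0.21, at the SD of 0.21).

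Probe sets of one gene gave a check on single ratios within these arrays. They read the same 2 pools on the same 2 arrays, so they do not measure a spread between samples. Of 30 members that had 2 or more probe sets over both floors, all probe sets were on the same side in 14 (46.7%), near the 45.5% of all such genes. They were on the same side in 6 of 9 import genes and in 8 of 21 carriers. The genes all higher in the Bx pool were SLC25A14, SLC25A17, SLC25A26, SLC25A28, SLC25A46, TIMM9, TIMM23B, TIMM44, TOMM20 and TOMM22, and those all lower were SLC25A1, SLC25A24, SLC25A37 and TOMM7. Between probe sets of the same gene the SD of the log2 ratio, over all genes, was 0.45, 0.38, 0.31 and 0.26 from the dimmest to the brightest group. Of the 51 measured members, 46 (90.2%) had ratios smaller than that, as had 81.9% of all measured genes. Probe sets lay on both sides of 0 in SLC25A4, SLC25A6, SLC25A13, SLC25A15, SLC25A16, SLC25A20, SLC25A22, SLC25A25, SLC25A32, SLC25A36, SLC25A38, SLC25A39, SLC25A43, TIMM17B, TIMM22 and TOMM6, and for these the chosen probe set alone gives no settled direction.

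**Figure D3:**
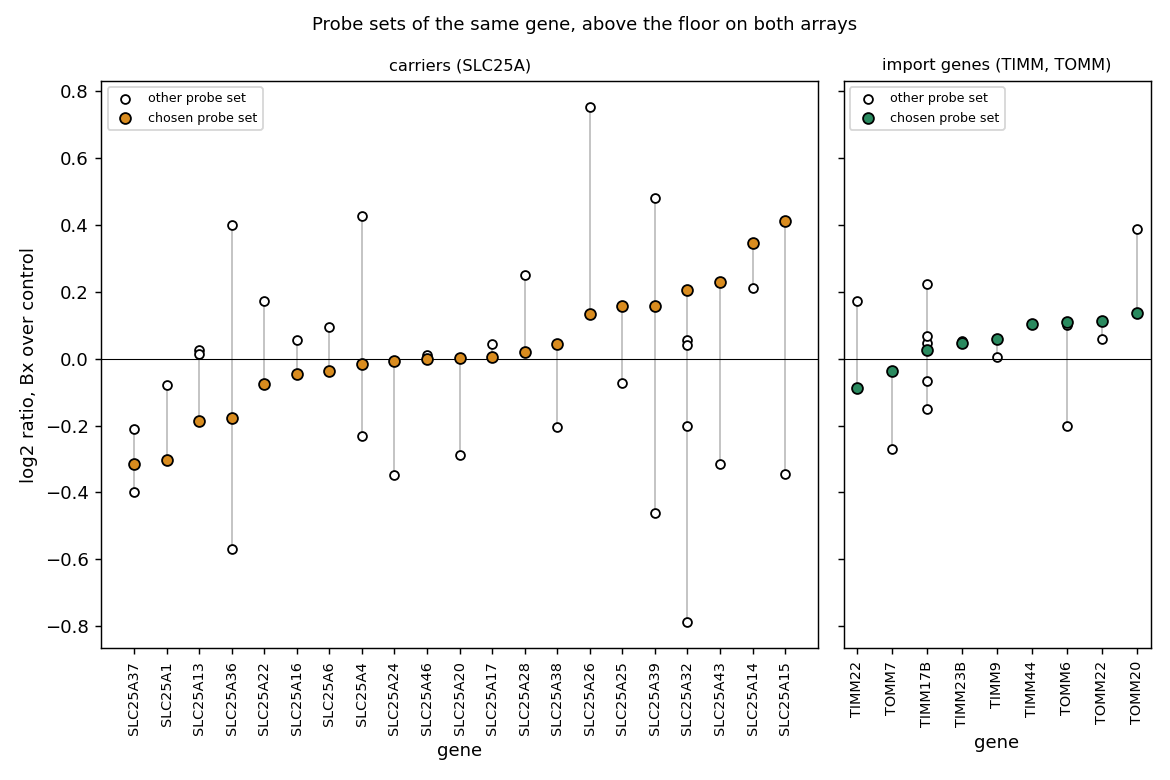
Log2 ratio of Bx over control (vertical axis) of every probe set that exceeded both floors, for the 21 carriers (left) and 9 import genes (right) with at least 2 such probe sets. Filled points are the chosen probe sets and open points the others; SLC25A32, SLC25A36, SLC25A39 and SLC25A15 span 0 widely, while the points of TIMM23B and TIMM44 coincide.

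Among the brightest of the 4 groups of genes, where ratios spread least over genes, most carriers and most import genes lay on different sides of 0. This split was looked at after the values were seen, and the next brightest group did not show it. Of 13 carriers in the brightest group, 11 were lower in the Bx pool, with a median log2 ratio of -0.08. SLC25A14 and SLC25A20 were the exceptions. Of 7 import genes there, 6 were higher, with a median of 0.11, and TOMM7 was the exception. Over all genes of that brightness 52.6% were lower and 47.4% higher, with a median of -0.0083. Further from 0 than the SD of 0.15 were 9 of these 20 members (45%), beside 26.8% of all genes of that brightness. Lower by that measure were 6 carriers, SLC25A1, SLC25A3, SLC25A13, SLC25A29, SLC25A36 and SLC25A51, and higher were SLC25A14, TIMM13 and TOMM5. Only SLC25A1 (-0.30) and SLC25A14 (0.35) also passed 0.26, the SD within a gene's probe sets at this brightness. Among the lower carriers, SLC25A6, SLC25A13, SLC25A16, SLC25A22 and SLC25A36 had probe sets on both sides of 0. So had SLC25A20, TIMM17B and TOMM6 among the higher members. SLC25A5 (-0.0046) and SLC25A24 (-0.0058) were lower by very little. In the next brightest group, the carriers SLC25A12, SLC25A28, SLC25A32, SLC25A38, SLC25A39 and, by 0.0047, SLC25A17 were higher in the Bx pool. SLC25A4 and SLC25A21 were lower. Of the 7 import genes in that group, TIMM9, TIMM21 and TIMM23B were higher, and TIMM10B, TIMM22, TOMM70 and TIMMDC1 were lower.

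The import count stayed at 6 of 7 under the 6 other settings tried for this split. The carrier count moved with the scaling: 12 of 13 were lower when each array was centred on its median, 9 of 13 after quantile normalization or loess, 9 of 13 with the mean over probe sets, and 8 of 12 without _s_at and _x_at probe sets. The carrier median ranged from -0.12 to -0.03. The same 2 pools gave all these values, and whether another pair of pools would show the split was not measured. The measured granulosa markers, lower in the Bx pool, and the measured oocyte markers, higher there, moved beside it, and their part was not tested.

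**Figure D4:**
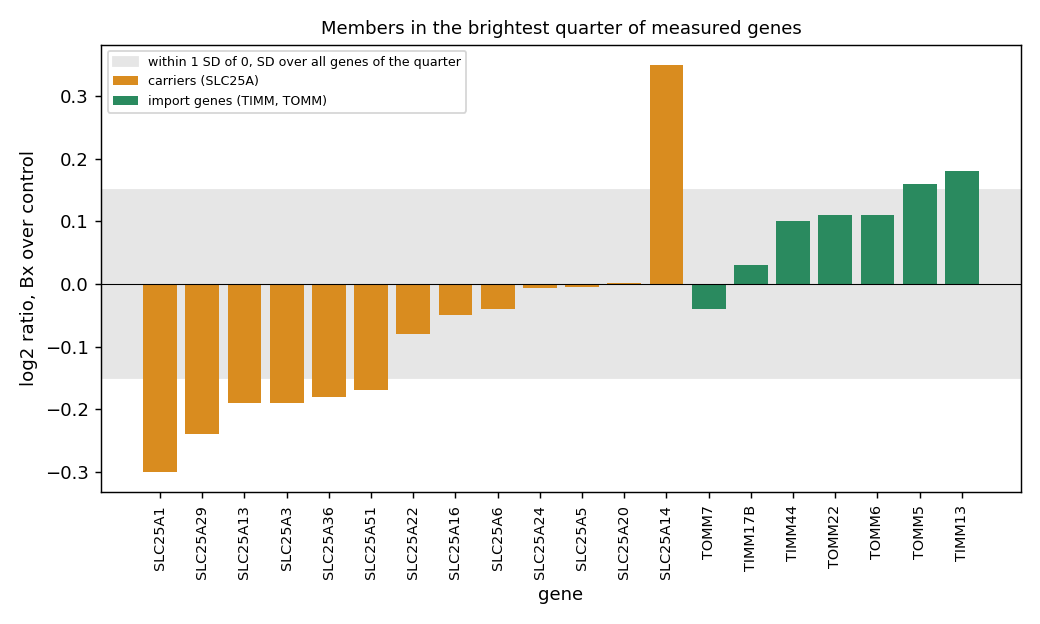
Log2 ratio of Bx over control (bars, vertical axis from 0) of the 13 carriers (orange) and 7 import genes (green) in the brightest of 4 equal groups of measured genes. The grey band is 1 SD (0.15) on each side of 0, taken over all genes of that brightness; 11 carrier bars point down and 6 import bars point up.

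On the chosen probe sets, most measured partner genes of import, transport and mitochondrial biogenesis also differed little between the pools. Of 45 listed partners on the array 42 were measured, 21 of them higher and 21 lower, with a median log2 ratio of -0.0014. Over all measured genes 52.4% were higher. Past 1.5-fold either way were 0 partners, beside 7.74% of all measured genes. In the 2 brighter groups of genes that share was 1.49% and 0.354%. In the import list, DNAJC19, a cochaperone of the motor, had 94.6 in the Bx pool and 74.3 in the control pool, with a second probe set going the other way. GFER, the oxidase that recharges the intermembrane space disulfide relay, had 203 in the Bx pool and 161 in the control pool (0.34). The signals of GFER lay at the border of the 2 dimmer groups, whose SDs were 0.49 and 0.31. IMMP2L, an inner membrane peptidase, had 944 in the Bx pool and 759 in the control pool (0.32, outside the SD of 0.21). HSPE1, the matrix cochaperonin, had 22098 in the Bx pool and 17900 in the control pool (0.30, 1 probe set). This was outside the SD of 0.15 over genes of its brightness. Its partner HSPD1 had 17729 in the Bx pool and 18000 in the control pool. DNAJC19, GFER, IMMP2L and HSPE1 had the largest ratios among the measured partners on the chosen probe sets. MTX3, next in size, went the other way, with 839 in the Bx pool and 1023 in the control pool (-0.29). Both of its probe sets were lower. In the transport list, MCU had 311 in the Bx pool and 262 in the control pool (0.25). Both of its probe sets were higher but far apart, with a mean of 0.75 ± 0.72 (SD).

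PPARGC1B, a coactivator of mitochondrial biogenesis, was under the floor in the Bx pool, at 11.0, and had 67.5 in the control pool, which makes it at least 1.85-fold lower against the Bx floor. Of 428 genes that exceeded the floor on the control array alone, 47.2% were at least 1.5-fold lower by that measure. PPARGC1A, its relative, was under the floor in both pools. TFAM, the packaging factor of mitochondrial DNA, had 4331 in the Bx pool and 4326 in the control pool. Of 63 measured respiratory chain and ATP synthase genes 46 were higher, with a median log2 ratio of 0.06 (42 higher after median centring), and of 65 mitochondrial ribosomal protein genes likewise 46, also with 0.06. Beside these, the import genes had 0.11 with 13 of 18 higher, and the carriers -0.0046 with 16 of 33 higher. Over all measured genes 52.4% were higher, with a median of 0.01. In the brightest group 40 of 53 respiratory chain genes and 25 of 36 mitochondrial ribosomal protein genes were higher in the Bx pool. Of the carriers there 2 of 13 were, and of all genes there 47.4%. The carrier count was 1 of 13 after median centring and 4 of 13 after quantile normalization, loess or the mean over probe sets.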

How the data were processed

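RNA of 3 birds per group was pooled, labelled from 100 ng and hybridised to 1 one-colour Affymetrix Chicken Genome Array per group, per the labels' protocols. The deposited values are linear signal intensities, 1 for each probe set on each array, which the authors made with MAS5, per the submitters' processing notes; its version is not given in the sources used here. With 2% trimmed at either end, both arrays averaged 500.1.

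Signals were kept as scaled and taken to log2 with no pseudocount (Python 3.11.15, numpy 2.4.6, pandas 2.3.3, statsmodels 0.14.6). The floor was the 95th percentile, per array, of the 746 probe sets with neither the chicken nor the control prefix. Gene names came from the platform annotation held by GEO, which may be outdated, and all 52 members had the same symbol in the RefSeq table of assembly GRCg7b. The members had 105 probe sets, 94 of which exceeded both floors. The number of arrays limits the precision. Named genes were all members, and up to 4 partners with the largest ratios. HSPD1, MCU, MTX3, the other import motor partners, the biogenesis regulators and the respiratory and ribosomal lists were added after values were seen. The members and lists were chosen with earlier results of these data known. The calculation was tested on simulated data. No sequences are shown.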

Additional observations from a re-analysis of the deposited data

How the results depend on the processing

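Centring on the median, quantile normalization, loess, a pseudocount of 16 and the mean over probe sets each left 1 member at least 1.5-fold higher (TIMM10) and 0 lower, as did leaving out _s_at and _x_at probe sets. The higher count was 0 with the stricter floor (signals of 498 on the Bx array and 484 on the control array), which leaves 39 members and drops TIMM10, and 0 at a 2-fold threshold. The lower count was 1 with no floor, which admits UCP3 from the background. The median log2 ratio over members ranged from 0.001 to 0.05, that of import genes from 0.06 to 0.11 and that of carriers from -0.02 to 0.01. All were within 1 standard error over members of the value reported. That standard error is taken over genes on the same 2 arrays, so it does not measure a spread between samples. Of 392 member values recomputed, 5 moved by more than the SD between probe sets, and 24, in 15 members, had the opposite sign to the value reported. TIMM10, the 1 member past 1.5-fold, was not among these. It has 1 probe set, of the _at kind, so the settings that change or average probe sets could not alter its value. The same holds for the other members with 1 probe set. The 392 values also include those with no floor and with the stricter floor. Both settings keep each member's probe set and signals, so these values could not move. A pseudocount could not turn a sign. Without _s_at and _x_at probe sets the log2 ratio was -0.34 for SLC25A15, -0.57 for SLC25A36, 0.48 for SLC25A39 and 0.43 for SLC25A4, and SLC25A32 had -0.14 with the mean over probe sets. The first 4 follow from the choice of another probe set, and the last from averaging 5. No paired analysis was possible because each group has 1 array, and no replicate could be left out.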
